A study of Oryza sativa with 6 samples.

Results

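Homeobox genes encode transcription factors that bind DNA through a homeodomain. The rice genes examined here were those whose symbol or synonym in the rice gene table is HOX, ROC, HOS, OSH or WOX with a number, and the rule also allowed KNOX and BLH names, which matched nothing further. It gave 55 genes, of which 50 had a probe set assigned to them alone, out of 17905 genes with such a probe set. *HOX3*, *ROC9*, *OSH10*, *OSH15* and *WOX5* had none, the probe set of *OSH15* being assigned to another gene as well. The members were 35 HD-ZIP genes, 11 KNOX genes, 8 WOX genes and *HOX1A* (also named *HAZ1*), which belongs to none of these classes. A histone H2B gene written OsH2B was not counted, because without its species prefix the name is H2B.

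Leaf RNA came from 3 wild-type (WT) and 3 MADS29OX samples of rice (*Oryza sativa* subsp. indica) var. PB1, taken from leaves 3 and 4 below the flag leaf, and each sample was hybridized to 1 Affymetrix rice array. MADS29OX plants carry an *OsMADS29* cDNA under a ubiquitin promoter, which is active in most tissues and so drives the gene outside the seed, where it is normally expressed. WT plants are of the same variety without the transgene. Plant age is not stated, nor is it stated if samples within a group are from different plants or transgenic lines. The p-values therefore describe only the spread among these arrays, whose small number limits the precision. The paper describes MADS29OX plants as stunted, sterile and early to flower, with smaller and thinner leaves. The samples include no transformed plants without the *OsMADS29* transgene. Effects of the transgene itself, of transformation and of this altered growth therefore cannot be told apart here. The question asked of the arrays was which genes differ between MADS29OX and WT leaves.

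The classes do different work in the plant. KNOX class I genes keep cells of the shoot apical meristem undifferentiated and are shut off as leaves form, whereas KNOX class II genes are expressed in differentiating organs. WOX genes maintain stem cell niches and help to start organs such as crown roots. HD-ZIP class I genes take part in growth and in the response to drought and abscisic acid, class II genes in auxin and shade responses and vascular development, class III genes in the upper (adaxial) side of the leaf and in vascular tissue, and class IV genes, called ROC in rice, in the epidermis.

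Values are linear probe set intensities as deposited, called signals here. The overexpressed gene itself, *OsMADS29* (LOC4328443), gave 6.70, 6.37 and 6.64 in the WT samples and 2016, 1788 and 3590 in the MADS29OX samples. Signals below 16 were treated as unmeasured and raised to 16 before taking log2, which makes fold changes of weak genes smaller, and the WT arrays all lay below that floor. The increase was therefore at least 147-fold (adjusted p = 0.000139 from limma; exact permutation test, 2-sided, p = 0.1, the smallest value that 3 arrays against 3 can give). Calls required a fold of at least 2 together with a limma p, adjusted over all tested probe sets, no greater than 0.05, and 5.05% of the 10045 genes tested were called higher and 5.03% lower. Of 7 photosynthetic marker genes with a probe set, all were above the floor on all 6 arrays, with a lowest signal of 139. Their summed signal was 6789 to 7730 on the WT arrays and 15814 to 22510 on the MADS29OX arrays. *LIR1* (mean signals of 175 in WT and 4547 in MADS29OX leaves) and *CAB2R* (2525 and 7073) differed most in signal. *PSAG* was lower in MADS29OX leaves (1105 and 537), so the sum mainly follows a few genes. Of these markers 5 were called higher and 1 lower in MADS29OX leaves, and their part in the values below was not tested. Of the markers of other tissues, 8 of 9 for dividing cells, 9 of 11 for panicle and flower and 4 of 4 for root lay below 16 on every array. The summed signal of the dividing cell markers was 70.8 to 78.5 in WT and 70.2 to 82.5 in MADS29OX leaves, and that of the flower markers was 129 to 133 and 86.9 to 103. Both sums include the signals below 16 that count as unmeasured, and of the dividing cell markers only *PCNA* exceeded the floor. Most of the flower sum in WT leaves came from *MADS16*, a floral organ identity gene. It had 71.7, 68.5 and 67.0 in WT and 28.4, 38.8 and 23.005 in MADS29OX leaves and was called lower (log2 fold change -1.23 ± 0.19 SE, limma adjusted p = 0.00770). In bulk leaf RNA, fewer cells of a type and less RNA per cell cannot be told apart.

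Most of the homeobox genes gave no signal above the floor. Of the 50 genes, 30 lay below 16 on all 6 arrays, against 43.9% of all genes with a probe set. Of these, 23 stayed under 8 on every array and the other 7 reached 8 or more on at least 1 array. The WOX class was below the floor throughout, 7 of 7 genes, with signals between 5.25 and 10.6. It includes *WOX9* (also named *QHB*), a marker of the quiescent centre of the root, *WOX11*, which promotes crown root growth, and *WOX4*, which acts in shoot meristem maintenance. *WOX8* gave the highest signals of the class, 9.50, 8.08 and 8.64 in WT and 10.6, 8.31 and 6.43 in MADS29OX leaves, with overlapping groups. The other genes below 16 were *WOX6*, *WOX7* and *WOX10*.

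Of the KNOX genes, 3 were above the floor, all of class II. All 5 class I genes with a probe set, *OSH1*, *OSH3*, *OSH6*, *OSH43* and *OSH71*, lay between 5.54 and 8.24 on every array. *OSH1*, which is required to maintain the shoot apical meristem, had signals of 6.50, 6.38 and 6.27 in WT and 6.32, 6.39 and 6.32 in MADS29OX leaves, so no signal of this meristem gene was detected in either group. *OSH71* had 7.96, 8.24 and 7.82 in WT and 6.64, 5.76 and 6.59 in MADS29OX leaves, values that do not overlap but are too low to be interpreted. Of the 4 class II genes, *HOS66* was below the floor, at 6.001 to 6.079 on every array, and *HOS58*, *HOS59* and *OSH45* were expressed on all arrays.

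**Figure D1:**
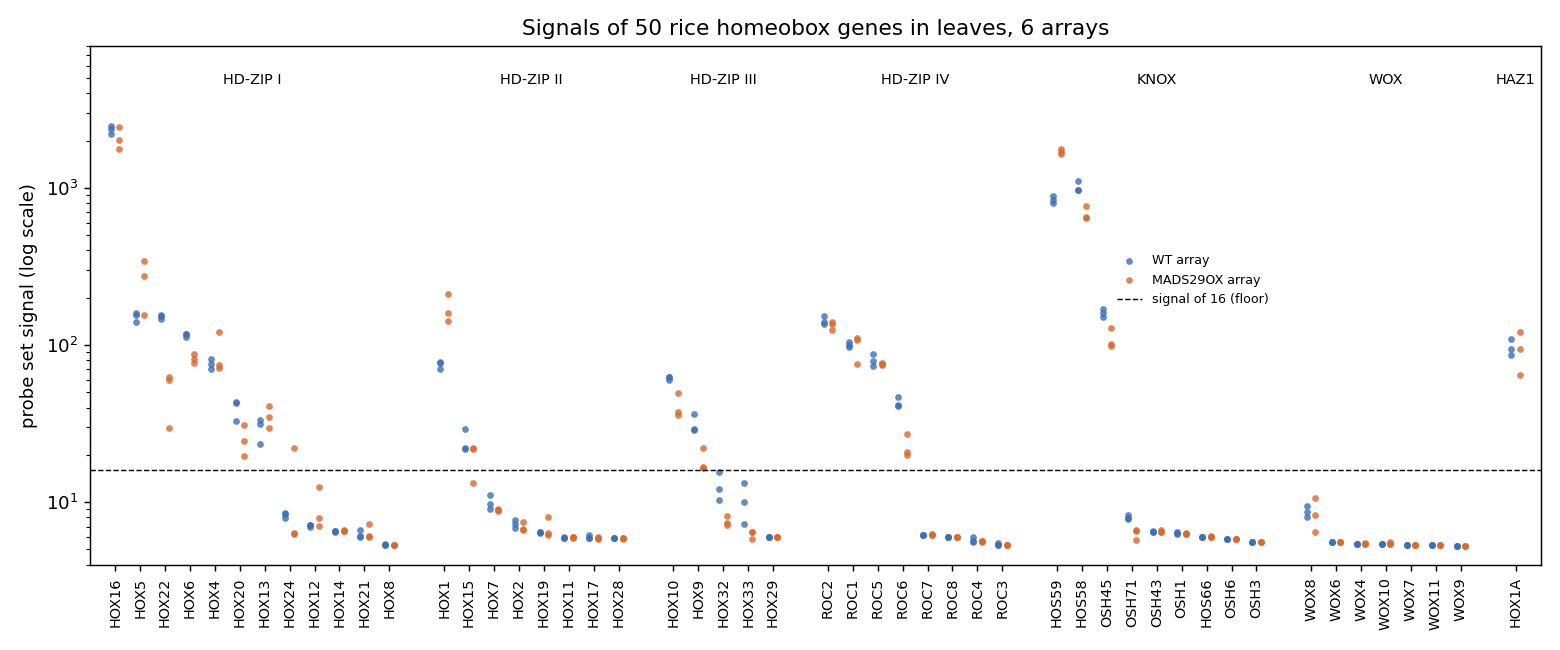
Signals of the 50 homeobox genes with a probe set, on a log scale, with genes grouped by class along the x axis and ordered by mean signal. Each gene has 3 points for WT and 3 for MADS29OX arrays, and the dashed line is the floor of 16. All 7 WOX genes and all 5 KNOX class I genes lie below the line, while *HOX16*, *HOS58* and *HOS59* have the brightest probe sets.

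Of the 20 genes that exceeded the floor on 1 array or more, 16 were HD-ZIP genes, 3 were KNOX genes and the last was *HOX1A*, and 18 of the 20 exceeded it on all 6. In MADS29OX leaves 2 were called higher, *HOX1* and *HOS59*, and 1 was called lower, *HOX22*. This is 2 of 20 against 5.05% of all tested genes called higher, and 1 of 20 against 5.03% called lower, so the number of calls is no result about homeobox genes as a group. Without a fold limit 2 genes passed the adjusted p as higher (11.4% of all genes) and 7 as lower (15.1% of all genes). The log2 fold change was negative for 14 of the 20 genes, compared with 51.3% of all genes tested. Their median log2 fold change was -0.15, beside -0.01 over all tested genes.

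*HOS59* is a KNOX class II gene and had the lowest adjusted p of the homeobox genes. In WT leaves its signals were 884, 832 and 801, and in MADS29OX leaves they were 1680, 1647 and 1777. Each MADS29OX array was well above each WT array, and the arrays of each group lay close together. The means were 839 ± 41.9 (SD, n = 3) and 1701 ± 67.3 (SD, n = 3), which is a log2 fold change of 1.02 ± 0.08 (SE, limma adjusted p = 0.000770). The change is close to the fold limit, and without WT replicate 3 or MADS29OX replicate 3 it fell just short of 2-fold (log2 fold changes of 0.99 in each case) with adjusted p = 0.00721 and adjusted p = 0.00355.

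The other expressed class II genes had negative log2 fold changes. *HOS58* had signals of 975, 963 and 1103 in WT and 657, 762 and 641 in MADS29OX leaves, and the groups did not overlap (log2 fold change -0.56 ± 0.11 SE, limma adjusted p = 0.0137). *OSH45* had 161, 152 and 169 in WT and 129, 99.0 and 102 in MADS29OX leaves, again without overlap (-0.56 ± 0.12 SE, adjusted p = 0.0243). Of all tested genes, 25.4% had groups without overlap with MADS29OX lower. Neither *HOS58* nor *OSH45* reached 2-fold, so they were not called. When any 1 WT array was left out, *OSH45* no longer passed the adjusted p (0.0707 to 0.0962), nor did it without MADS29OX replicate 3 (0.0679), and for *HOS58* it ran from 0.0483 to 0.0572.

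*HOX1*, an HD-ZIP class II gene whose product acts as a transcriptional repressor and has been linked to the formation of vascular tissue, was the other gene called higher. Its signals were 78.0, 77.3 and 70.3 in WT and 142, 161 and 212 in MADS29OX leaves. The lowest MADS29OX array lay well above the highest WT array, but the MADS29OX arrays were more spread. The means were 75.2 ± 4.29 (SD, n = 3) and 172 ± 36.1 (SD, n = 3), which is a log2 fold change of 1.17 ± 0.16 (SE, limma adjusted p = 0.00492). It remained called without any 1 array, with log2 fold changes from 1.01 to 1.30. The call was lost with log2 of the signal plus 16 (adjusted p = 0.0550) and with all probe sets above the 40th percentile of the mean (adjusted p = 0.0597), both of which add probe sets below the floor to the fit. Of its class, only *HOX15* was also above the floor, with signals of 21.7, 22.3 and 29.4 in WT and 13.2, 22.1 and 21.9 in MADS29OX leaves. These groups overlapped, and *HOX15* was not called (-0.29 ± 0.18 SE, adjusted p = 0.302). *HOX2*, *HOX7*, *HOX11*, *HOX17*, *HOX19* and *HOX28* lay below 16 on all arrays, *HOX2* and *HOX28* being neighbours in the genome.

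*HOX22*, an HD-ZIP class I gene of drought and abscisic acid responses, showed the largest change of the homeobox genes tested. Its signals were 146, 153 and 156 in WT and 62.5, 59.7 and 29.6 in MADS29OX leaves. The WT arrays were nearly equal, all MADS29OX arrays were far below them, and MADS29OX replicate 3 was the lowest. The means were 152 ± 5.01 (SD, n = 3) and 50.6 ± 18.3 (SD, n = 3), which is a log2 fold change of -1.66 ± 0.30 (SE, limma adjusted p = 0.0115). Without MADS29OX replicate 3 the log2 fold change was -1.31 and the gene was still called. The call was lost narrowly without WT replicate 2 (adjusted p = 0.0532) or WT replicate 3 (adjusted p = 0.0530), with log2 of the signal plus 16 (adjusted p = 0.0801) and with the 40th percentile filter (adjusted p = 0.120).

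**Figure D2:**
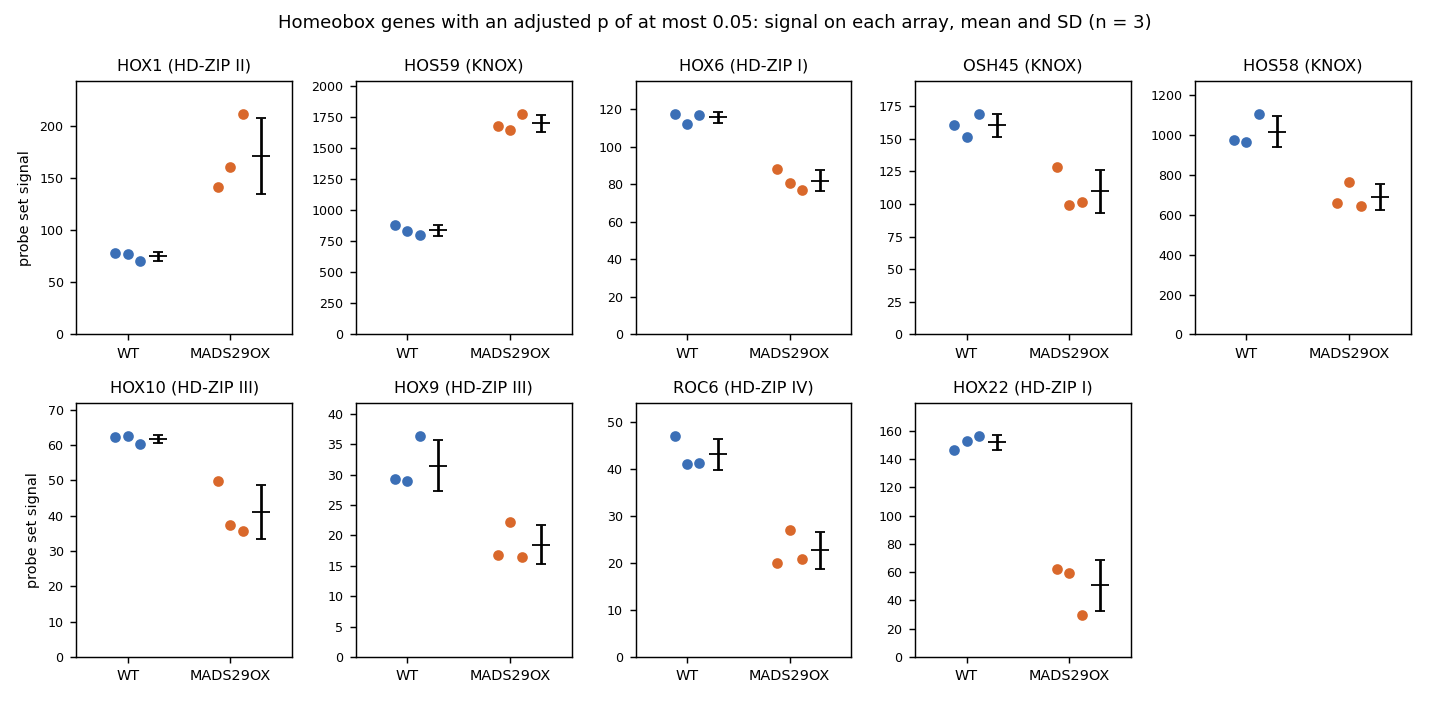
Signals on each array of the 9 homeobox genes with an adjusted p of at most 0.05, on linear axes that start at 0, with 1 panel per gene, 3 WT points and 3 MADS29OX points. Horizontal marks and bars beside the points are the mean and SD (n = 3). *HOX1* and *HOS59* are higher and the other 7 lower in MADS29OX leaves. In no panel do the groups overlap, which is no further result, because the genes were chosen by adjusted p. Of all tested genes, 20.5% had groups without overlap with MADS29OX higher and 25.4% with MADS29OX lower.

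The other class I genes that were measured varied in direction. *HOX6*, chosen for mention after its values were seen, had signals of 117, 112 and 117 in WT and 88.1, 80.9 and 77.2 in MADS29OX leaves, a small decrease with tight arrays (log2 fold change -0.50 ± 0.08 SE, limma adjusted p = 0.00917). *HOX20* had 42.5, 32.6 and 43.7 in WT and 24.5, 19.5 and 31.2 in MADS29OX leaves and did not pass (-0.67 ± 0.21 SE, adjusted p = 0.0618). Its brighter probe set is of a kind that can bind transcripts of related genes, and its other probe set, 20.4, 17.8 and 22.7 against 12.2, 8.98 and 11.3, was lower in MADS29OX leaves as well and did not pass either (adjusted p = 0.0704). *HOX5* had 139, 156 and 159 in WT and 273, 155 and 343 in MADS29OX leaves. MADS29OX replicate 2 lay among the WT arrays and the other MADS29OX arrays above them, and the gene was not called (0.69 ± 0.29 SE, adjusted p = 0.141). Without that array it was called higher (log2 fold change of 1.02, adjusted p = 0.00402).

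*HOX16* had the brightest probe set of the homeobox genes, with signals of 2385, 2472 and 2209 in WT and 1761, 2031 and 2422 in MADS29OX leaves, and its groups overlapped (-0.20 ± 0.13 SE, adjusted p = 0.338). *HOX4*, named in rice for a role in gibberellin responses, and *HOX13* had overlapping groups too and were not called. *HOX24*, a stress-responsive gene related to *HOX22*, was above the floor on 1 array, MADS29OX replicate 1, with a signal of 22.2, whereas its other signals were between 6.27 and 8.53. *HOX8*, *HOX12*, *HOX14* and *HOX21* were below 16 on all arrays, the nearest to the floor being *HOX12* with 12.6 on MADS29OX replicate 3.

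HD-ZIP class III transcripts are cut under the direction of the microRNA miR166, whose level was not examined here. Both class III genes above the floor passed the adjusted p as lower, as did 15.1% of all tested genes, and the cause was not tested. *HOX10* (also named *OsHB1*) had signals of 62.2, 62.4 and 60.3 in WT and 49.7, 37.4 and 35.7 in MADS29OX leaves (log2 fold change -0.61 ± 0.14 SE, limma adjusted p = 0.0270). *HOX9* (also named *OsHB2*) had 29.3, 28.9 and 36.3 in WT and 16.9, 22.2 and 16.4 in MADS29OX leaves (-0.77 ± 0.16 SE, adjusted p = 0.0187), so the MADS29OX arrays were close to the floor. In neither gene did the groups overlap (25.4% of all tested genes had groups that did not overlap with MADS29OX lower, and 20.5% with MADS29OX higher), and neither reached 2-fold. Both lost the adjusted p when any 1 WT array was left out (0.0890 to 0.0986 for *HOX10* and 0.0564 to 0.0681 for *HOX9*). They also lost it without MADS29OX replicate 3 (0.0665 for *HOX10* and 0.0535 for *HOX9*), but not without MADS29OX replicate 1 or 2. Adjustment over all probe sets lost it as well (0.109 and 0.0750), as did the replicate number as a block (0.0580 and 0.0607). With a floor of 32, above every MADS29OX signal of *HOX9*, that gene had -0.06 (adjusted p = 0.603). With the mean of its probe sets *HOX10* had -0.30 (adjusted p = 0.0499), its other probe set being below 16 on all arrays.

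Below the floor, *HOX32*, which is known for a part in leaf rolling, had 12.2, 10.4 and 15.6 in WT and 7.34, 8.22 and 7.17 in MADS29OX leaves, and *HOX33* had 7.25, 10.02 and 13.3 against 6.42, 5.83 and 6.46. *HOX29* lay at 5.99 to 6.03 on all arrays. These 3 genes were not tested, and their signals are too low to be read as a change.

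Among the ROC genes of the epidermis, *ROC6* alone passed the adjusted p. It had signals of 47.0, 41.1 and 41.3 in WT and 20.01, 27.1 and 20.9 in MADS29OX leaves. The highest MADS29OX array was well below the lowest WT array, and the log2 fold change of -0.94 ± 0.14 (SE, limma adjusted p = 0.00659) stayed just short of 2-fold. *ROC6* was called lower without MADS29OX replicate 2 (-1.07) and with array weights (-1.03). The change was smaller with a floor of 32 (-0.43), which is above every MADS29OX signal of the gene. It was also smaller with the mean of its probe sets (-0.47), the other probe set being below 16 on all arrays and so counted as no change. The adjusted p was 0.0677 with the 40th percentile filter. *ROC2* had 137, 141 and 154 in WT and 136, 140 and 124 in MADS29OX leaves, and *ROC1* had 104, 96.6 and 101 against 108, 111 and 76.0. *ROC5*, which controls the bulliform cells that roll the leaf, had 73.3, 79.7 and 87.3 against 75.9, 76.9 and 74.8. In these last 3 genes the groups overlapped, with log2 fold changes of -0.11 (standard error 0.09), -0.05 (standard error 0.16) and -0.08 (standard error 0.09). *ROC3*, *ROC4*, *ROC7* and *ROC8* were below 16 on all arrays. *HOX1A* had 109, 87.0 and 93.7 in WT and 121, 94.6 and 64.9 in MADS29OX leaves, with overlapping groups (-0.09, standard error 0.24).

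**Figure D3:**
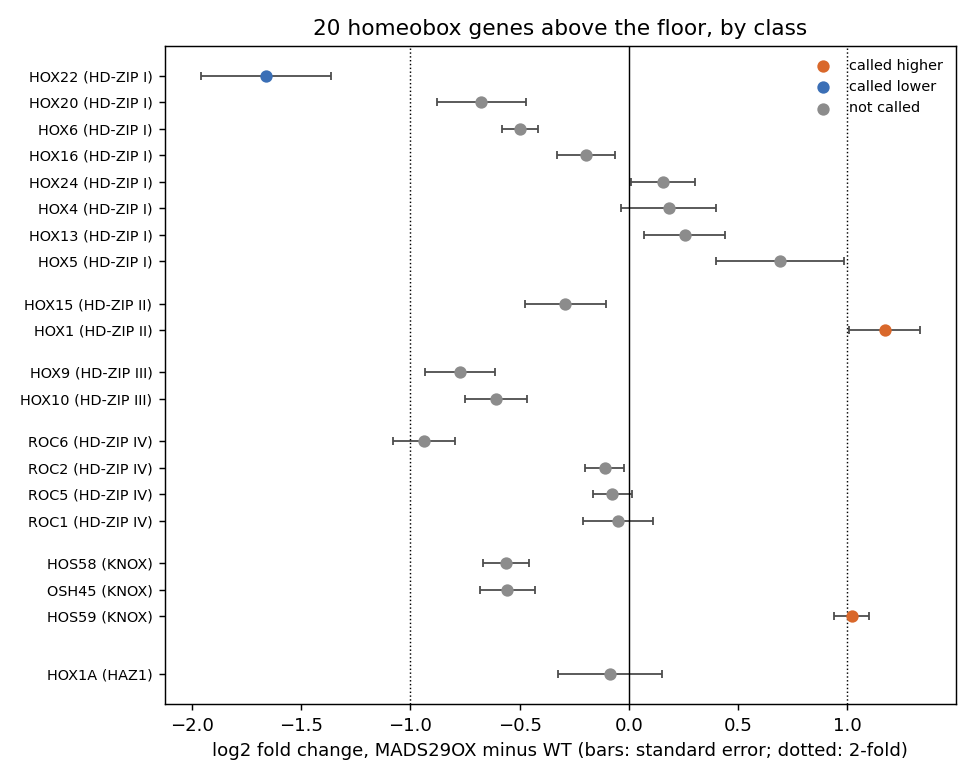
Log2 fold change (MADS29OX minus WT) of the 20 homeobox genes above the floor, by class, with bars for the standard error from limma and dotted lines at 2-fold. *HOX22* lies below and *HOX1* and *HOS59* lie above the 2-fold lines and are coloured as called, whereas *ROC6*, at -0.94, falls just inside them.

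Genes of related processes were taken from lists of names, and the role of each listed gene was not checked. Of the 6 tested genes in the list for leaf polarity and leaf shape, 1 was called lower, beside 5.03% of all tested genes. It was *NAL1*, named for a narrow leaf mutant, with signals of 113, 116 and 99.3 in WT and 15.6, 26.6 and 15.03 in MADS29OX leaves (log2 fold change -2.53 ± 0.22 SE, limma adjusted p = 0.00109). *SHO1*, a Dicer-like gene of the small RNA pathway that sets leaf polarity, also passed the adjusted p but was not called (-0.84 ± 0.13 SE, adjusted p = 0.00766), beside 15.1% of all tested genes that passed as lower. The YABBY genes *YAB2* and *YAB5* had log2 fold changes of -0.25 and -0.20 and did not pass, and 8 of the 14 genes of this list with a probe set lay below 16 on all arrays.

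Of a list of hormone genes tied to KNOX genes, the gibberellin synthesis genes *GA20OX2* and *GA20OX3* were tested. *CYP734A4* and *CYP734A6* of the same list lay below 16 on all arrays. Regulation of any of these genes by KNOX proteins was not tested. *GA20OX2* was below 16 on all WT arrays and had 23.7, 15.1 and 40.3 in MADS29OX leaves, which was not called (adjusted p = 0.213 from limma), and *GA20OX3* had 47.9, 45.6 and 59.2 against 37.6, 22.4 and 33.8 (adjusted p = 0.0615). Of 6 meristem maintenance genes 5 lay below 16 on all arrays, and the receptor kinase gene *FON1*, with 18.97, 24.99 and 26.4 in WT and 41.0, 24.4 and 19.5 in MADS29OX leaves, was not called. Of the cuticle and epidermis list only *WSL3* was tested, and it was not called. The planned *GL1* series and most of the planned *GA2OX* series were not searched for under their names. The cuticle and hormone lists are therefore incomplete.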

How the data were processed

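Leaf RNA of 3 WT and 3 MADS29OX samples was labelled with biotin and hybridized to Affymetrix rice arrays. The authors deposited 1 intensity per probe set and array on a linear scale (57381 probe sets, 123 of them controls). How the signals were background-corrected, summarized and scaled was not stated in any source read. Values were used as deposited. Array medians lay between 5.95 and 6.00, which is below 16, so they do not show if the measured signals share a scale. Quantile normalization was run as an alternative. No samples were dropped.

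Control probe sets were removed, a floor of 16 was set, and signals were put on the log2 scale. The fit covered the 14238 probe sets that exceeded 16 on any array and was made with lmFit and eBayes of limma 3.58.1 (R 4.3.3), with group as the only term. P-values were adjusted by Benjamini-Hochberg over these probe sets. The fit was tested on simulated data. Each gene was read from its brightest probe set (mean of the 6 arrays), with genes from the platform annotation (22436 probe sets with 1 gene, 95 with several). Names came from a rice gene table (assembly ASM3414082v1, read with Python 3.11.15). No coordinates or sequences are given.

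The members and lists were chosen with earlier results of these data known. Genes given with full statistics are *OsMADS29*, called homeobox genes, other homeobox genes without overlap and at least 1.5-fold apart, the brightest members of each class and called genes of the related lists. *HOX6*, *OSH45* and *SHO1* and other genes given with values were added after these were seen. Alternatives covered scaling, floor, filters, adjustment, fold limit, prior, array weights, probe set choice, replicate block and leaving out each array.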

Additional observations from a re-analysis of the deposited data

How the results depend on the processing

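The counts of called homeobox genes, 2 higher and 1 lower, were recomputed under 23 alternatives. With log2 of the signal plus 16 and with the 40th percentile filter 1 was higher and 0 were lower, *HOS59* being the gene still called. With no fold limit 7 were lower, with a limit of 1.5-fold 4 were lower, and with array weights 2 were lower, *ROC6* being added. With 1 array left out, between 1 and 3 genes were higher and between 0 and 2 lower. Without WT replicate 3 *HOX1* was the one gene called, and without MADS29OX replicate 2 *HOX5* and *ROC6* were called as well. Quantile normalization, median centring, floors of 8 and 32, no floor, a minimum mean of 32, adjustment over all probe sets, a trend and robust prior, array weights per group, dropping probe sets with the suffix _x_at or _s_at and averaging all probe sets per gene left *HOX1*, *HOS59* and *HOX22* as the called genes. Each of these genes has 1 probe set without those suffixes, so dropping or averaging probe sets could alter only their adjusted p. All their signals exceed 16, so a floor of 8 or no floor could not alter their fold changes. The replicate number as a block also left the same genes called (2 higher, 1 lower). The labels do not say if same-numbered arrays were handled together. Same-numbered arrays deviated from their group means with correlations of 0.03, -0.04 and -0.13, and differently numbered arrays with -0.096 to 0.178. With 3 arrays per group these values cannot exclude a pairing. Over the homeobox genes above the floor of 16 the median log2 fold change ran from -0.19 to -0.10, whereas with the genes below it also tested it was -0.11 over 27 genes (floor of 8), -0.0018 over 50 genes (log2 of the signal plus 16) and 0 over 40 genes (40th percentile filter). The log2 fold change of *OsMADS29* ran from 6.20 to 8.48. With 1 array left out the ranges of the homeobox median and of *OsMADS29* were -0.19 to -0.13 and 6.89 to 7.39. Uncalled genes near 0 changed sign with 1 array left out. *ROC1* ran from -0.15 to 0.12, being positive without MADS29OX replicate 3, and *HOX1A* ran from -0.29 to 0.15, being positive without that array and at 0.004 without WT replicate 1. Causes were not tested. Over the 17 homeobox genes whose mean exceeded 32 the median SD (log2 scale) was 0.236 in MADS29OX and 0.0893 in WT leaves. Over all 7011 tested genes with such a mean it was 0.250 and 0.0796, so the wider spread is not particular to homeobox genes. Signals below 16 allow no statement on change.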
